A study of Mus musculus with 4 samples.

Results

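The genes described here are 10 enzymes and regulators of polyamine and arginine metabolism, taken by symbol from the 54152 genes of the deposited table: Odc1, Amd1, Srm, Sms, Azin1, Sat1, Paox, Smox, Arg1 and Arg2. All 10 were found in the table, and all 10 had enough counts to enter the test over 18530 genes. On pregnancy day 4, whole uteri of C57 mice were taken for RNA sequencing, giving 2 libraries with the genotype label P38α ff and 2 with the label P38α dd. By its title, the series compares wild-type uteri with knockouts of p38α, a stress-responsive MAP kinase (gene Mapk14). The labels name no other allele or agent. The Cre driver, the deleted part of Mapk14, the age of the mice and whether each replicate was another animal were not given in the sources used here. P-values therefore measure only the spread between these libraries, which may be technical.

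The polyamines putrescine, spermidine and spermine are small cations that bind nucleic acids, and growing cells need them. Arginase splits arginine into urea and ornithine, ornithine decarboxylase turns ornithine into putrescine, and spermidine and spermine synthases add aminopropyl groups supplied by S-adenosylmethionine decarboxylase. Breakdown runs the other way, through acetylation followed by oxidation or through direct oxidation of spermine. In the rodent uterus, ornithine decarboxylase and the arginases are known for their part in early pregnancy, when the implantation site and the decidua grow.

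Total counts lay between 24619850 and 32451670 per library. CPM below is the count relative to the library size scaled by the TMM factors of edgeR, and folds and log2 changes are dd over ff. A gene was called when its Benjamini-Hochberg adjusted p in edgeR's quasi-likelihood test was under 0.05. The labelled tissue carried its markers, with 4801 to 6443 counts of the progesterone receptor gene Pgr and 6536 to 13547 of the homeobox gene Hoxa10 per library. Mapk14 showed no decrease in the dd libraries, with 3074 and 2710 counts in the ff libraries against 2481 and 3429 (log2 0.28, adjusted p = 0.12). Scaled to library size, these were 92.3 and 87.0 CPM in ff and 105.0 and 113.2 CPM in dd. Both dd libraries thus lay above both ff libraries, which 31.6% of all tested genes also showed. A count summed over the gene does not reveal a deletion of single exons. Directions below rest on the labels ff and dd alone. In the libraries labelled dd, 4 of 8 epithelial and 4 of 5 red cell markers were called higher, and 6 of 6 endothelial, 4 of 9 stromal and 2 of 6 macrophage markers lower. Of 6 proliferation markers 1, Mki67, was called lower, and all 6 had log2 changes below 0. None of 6 smooth muscle markers was called. Over all genes tested 4.52% were called higher and 3.86% lower. In whole uterus fewer cells of a type and less RNA per cell cannot be told apart.

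Of the 10 genes, 1 was called higher in dd, the arginase gene Arg1, and none lower. Over all genes tested 8.39% were called, 4.52% higher and 3.86% lower, or 838 and 716 genes, and with the library size alone as the scaling the split was 751 and 1020. No member was lower at an unadjusted p under 0.05, where the share over all genes was 14.4%, or called lower in DESeq2. In the upward direction 4 members had an unadjusted p under 0.05 (Arg1, Arg2, Smox and Paox), where the share over all genes was 14.9%. The members' median log2 change was 0.29, against 0.00223 for all genes tested. The members were chosen with earlier results of these data known, so these comparisons with all genes are descriptions and no test of the group. In 7 members both dd libraries lay above both ff libraries, which 31.6% of all tested genes also showed, and in 1, Sms, both lay below, which 31.3% showed.

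**Figure D1:**
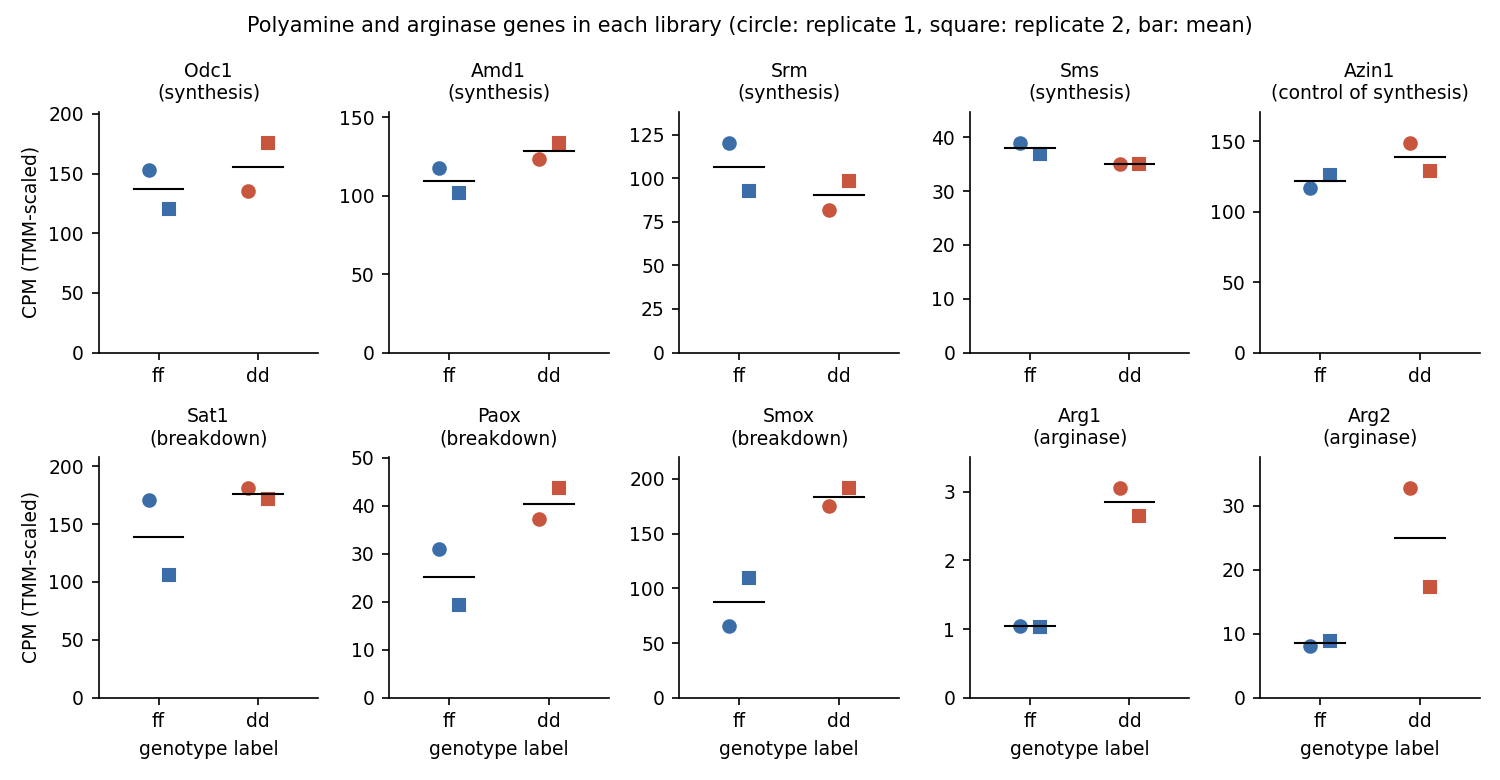
CPM of each of the 10 genes (vertical axis, linear from 0) in the 2 ff and 2 dd libraries, with the group mean as a bar. The dd points of Smox (175.6 and 191.4 CPM), Arg1 (3.05 and 2.64) and Arg2 (32.8 and 17.3) sit above their ff points, while the points of Odc1 and Srm overlap between groups.

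None of the 4 enzymes of synthesis was called in edgeR or DESeq2, and none had an unadjusted p under 0.05. Over all genes 8.39% were called in edgeR, and 14.9% were higher and 14.4% lower at that unadjusted p. In so few genes the absence of a call is no result about the group. Odc1 encodes ornithine decarboxylase, the enzyme that commits ornithine to polyamine synthesis. It lies on chromosome 12, 17544794 to 17551505 (mm10). Odc1 was at 153.4 and 120.4 CPM in ff and at 135.6 and 175.7 CPM in dd. The groups overlapped, the highest value being a dd library and the lowest an ff library. The fold was 1.14 with a 95% interval of 0.82 to 1.58 (log2 0.19, SE 0.18, adjusted p = 0.543). Without dd replicate 2 its log2 change was -0.01. Odc1 is a known transcriptional target of MYC, and Myc itself was called lower, with 5739 and 5023 counts in ff against 1976 and 2962 (log2 -0.88, adjusted p = 0.0255). A link between the levels of these genes was not tested.

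The promoter windows of Odc1 and Smox are shown because they belong to the committing enzyme of synthesis, which was not called, and to the member of breakdown with the largest difference. They are RefSeq windows of GRCm38.p6, 250 bases before to 50 after the gene's RefSeq start, 5′ to 3′ on the gene's strand, and capitals mark the GC box GGGCGG on either strand. RefSeq windows were found for 6 of the 10 members. The Odc1 window is chr12:17544623-17544922 and the Smox window is chr2:131491612-131491911, both on the plus strand. The GENCODE annotation places the starts elsewhere. Its Smox start, 131491496, lies before the window, so the whole Smox window falls inside the GENCODE gene. Its Odc1 start, 17544794, lies inside the Odc1 window and before the RefSeq start.
Odc1: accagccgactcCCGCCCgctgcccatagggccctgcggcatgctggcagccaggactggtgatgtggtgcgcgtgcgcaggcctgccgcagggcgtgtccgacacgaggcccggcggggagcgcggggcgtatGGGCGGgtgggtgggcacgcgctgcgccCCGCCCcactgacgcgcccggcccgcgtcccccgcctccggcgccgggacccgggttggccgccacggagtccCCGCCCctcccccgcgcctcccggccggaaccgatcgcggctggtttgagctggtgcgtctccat
Smox: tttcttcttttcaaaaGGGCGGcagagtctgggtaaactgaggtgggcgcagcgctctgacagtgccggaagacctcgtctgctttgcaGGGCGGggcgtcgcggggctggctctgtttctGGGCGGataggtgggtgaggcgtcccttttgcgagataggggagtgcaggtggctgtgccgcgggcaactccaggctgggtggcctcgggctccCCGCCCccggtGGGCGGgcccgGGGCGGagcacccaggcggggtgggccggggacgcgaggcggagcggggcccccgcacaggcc
The Smox window held 6 matches and the Odc1 window 4, none overlapping another. Among the other members' windows, an Sms window held 4, each Paox window 3, the Sat1 window 2 and the Amd1 window 1. A further Sms window held no match. At least 1 match was present in 35.7% of the 32851 mouse windows of the same length. Neither the Odc1 nor the Smox window held an E-box (CACGTG, either strand), which 7.15% of all windows held. A TATA box, searched as TATAAA on either strand, was absent from both and present in 13.6% of all windows. The CCAAT box, searched by those letters on either strand, was likewise absent from both and present in 37.4%. A match, or its absence, describes only these letters within the windows. Sequence beyond them, including the rest of each gene, was not searched.

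Amd1 encodes S-adenosylmethionine decarboxylase, which makes the aminopropyl donor. It was at 117.4 and 101.9 CPM in ff and 123.7 and 133.7 CPM in dd, so the dd libraries lay just above the ff libraries. The fold was 1.17 (95% interval 0.966 to 1.43, adjusted p = 0.235). Srm, the spermidine synthase gene, was at 120.3 and 92.8 CPM in ff and 81.7 and 98.7 CPM in dd. Its groups overlapped, and its fold was 0.846 (0.627 to 1.14, adjusted p = 0.394). Sms, the spermine synthase gene, varied least, at 39.0 and 37.0 CPM in ff and 35.1 and 35.0 CPM in dd. Its fold was 0.924 (0.784 to 1.09, adjusted p = 0.451). Across these 4 genes of synthesis the 95% intervals of the fold ran from 0.627 to 1.58.

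Azin1 encodes antizyme inhibitor 1, a relative of ornithine decarboxylase without its enzyme activity, which binds antizyme and so spares ornithine decarboxylase from degradation. The longest reading frames of Odc1 and Azin1 in the GENCODE transcripts shared 62.3% of 1328 aligned bases. Azin1 was at 116.7 and 126.0 CPM in ff and 148.7 and 128.6 CPM in dd. The dd libraries were above the ff libraries, the nearest pair by a small margin, and the fold was 1.14 (0.938 to 1.39, adjusted p = 0.308). Of the antizyme genes, Oaz1 did not pass, at 264.5 ± 14.9 against 334.1 ± 4.74 CPM (SD, n = 2; fold 1.26, adjusted p = 0.104). Oaz2 was at 157.3 and 171.2 CPM in ff and 155.7 and 142.9 CPM in dd, likewise short of a call (fold 0.909, adjusted p = 0.407). Oaz3 had 2 to 6 counts per library and was not tested.

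Among the genes of breakdown, Smox differed most. Smox encodes spermine oxidase, which turns spermine back into spermidine with release of hydrogen peroxide, and lies on chromosome 2, 131491496 to 131525922 (mm10). Its counts were 2171 and 3413 in ff against 4149 and 5798 in dd, or 65.2 and 109.6 CPM against 175.6 and 191.4 CPM. The groups did not overlap, and ff replicate 1 was the lowest library. The fold was 2.10 (95% interval 1.33 to 3.33; log2 1.07, SE 0.26), which did not pass over all genes (adjusted p = 0.0724). Over the 13 alternatives Smox passed in 4 and did not pass in 9. It passed in DESeq2 (adjusted p = 0.000836) and with no filter on low counts (adjusted p = 0.00664). Those settings called 2860 and 2947 of all genes, against 1554 in the main fit. Smox did not pass in limma-voom (adjusted p = 0.0674), limma-trend (0.0836) or edgeR with upper quartile factors (0.0782). The fitted log2 change rose to 1.49 on leaving out ff replicate 2 and fell to 0.74 on leaving out ff replicate 1. In the authors' deposited table, the fold of Smox is 2.10, with 0.0213 as the unadjusted p.

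Sat1 encodes spermidine/spermine acetyltransferase, the rate-limiting step of the other route of breakdown. It was at 170.8 and 106.1 CPM in ff and 180.9 and 171.8 CPM in dd. Only ff replicate 2 stood apart, and ff replicate 1 lay next to the dd libraries. The fold was 1.27 (0.836 to 1.94, adjusted p = 0.38), and without ff replicate 2 the log2 change was 0.05. Paox encodes the peroxisomal oxidase that acts on acetylated polyamines. It was at 30.9 and 19.3 CPM in ff and 37.2 and 43.6 CPM in dd, without overlap. The fold was 1.61 (1.04 to 2.51, adjusted p = 0.15). Paox overlaps Echs1 on the opposite strand. Any use of strand in counting was not given in the sources used here. Echs1, a gene of fatty acid oxidation, went from 65.4 ± 5.11 to 93.4 ± 7.08 CPM without passing (log2 0.51, adjusted p = 0.0532), and without strand the reads of the overlap cannot be told apart.

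The arginase genes carried the largest fitted log2 changes among the members. Arg1, known as the liver arginase of the urea cycle and also expressed by some macrophages, lies on chromosome 10, 24915221 to 24927484 (mm10). It was the least abundant member, its counts being 35 and 32 in ff against 72 and 80 in dd. These were 1.05 and 1.03 CPM in ff and 3.05 and 2.64 CPM in dd. Replicates lay close together in ff and the groups did not overlap. The fold was 2.73 (1.71 to 4.34; log2 1.45, SE 0.26, adjusted p = 0.0411). The call was lost without any 1 of the 4 libraries, at adjusted p between 0.101 and 0.151, while the log2 change stayed between 1.35 and 1.55.

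Marker genes stood as follows beside the Arg1 result. Of 6 macrophage markers 2 were called lower and none higher, none was at 0, and their summed level was 125.8 and 129.1 CPM in ff and 83.5 and 73.2 CPM in dd. Of 5 neutrophil markers 2 had enough counts to be tested, S100a9 (log2 -2.65, adjusted p = 0.077) and Mpo (log2 0.50, adjusted p = 0.43). S100a9, with 17 and 37 counts in ff against 4 and 3 in dd, passed the filter on low counts only through the ff libraries. Its change is therefore no support for a direction. The summed level of all 5 was 1.32 to 3.18 CPM, and Elane had no count in any library. The liver urea cycle genes Otc and Cps1, which act with Arg1 there, had 0 to 1 and 0 to 5 counts per library. Apart from these levels, the part of other cells in the Arg1 difference was not tested.

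Arg2 encodes the mitochondrial arginase found in many tissues outside the liver and lies on chromosome 12, 79130777 to 79156301 (mm10). Its counts were 268 and 279 in ff against 774 and 523 in dd, or 8.05 and 8.96 CPM against 32.8 and 17.3 CPM. The ff libraries were alike and the dd libraries differed between themselves, both above ff. The fold was 2.94 (1.62 to 5.31; log2 1.55, SE 0.33), which did not pass (adjusted p = 0.0573). The log2 change was 1.03 without dd replicate 1 (adjusted p = 0.0816) and 1.95 without dd replicate 2, when it passed (adjusted p = 0.0484). Arg2 also passed in DESeq2 (adjusted p = 0.00013) and with no filter (adjusted p = 0.00413), settings that called more of all genes. It did not pass in limma-voom (adjusted p = 0.083), limma-trend (0.0749) or edgeR with upper quartile factors (0.0634). In the authors' deposited table its fold is 2.93, with 0.00109 as the unadjusted p. Arg2 overlaps Vti1b and Gm48780 on the opposite strand. Vti1b, a vesicle fusion gene, was measured at 45.7 ± 1.68 against 54.0 ± 4.30 CPM (log2 0.24, adjusted p = 0.184), and Gm48780 had 3 to 10 counts per library.

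The part of epithelial and red cell RNA in the differences of Smox, Arg1 and Arg2 was not tested. Of 8 epithelial markers 4 were called higher and none lower (median log2 0.88), with a summed level of 851.6 and 966.0 CPM in ff and 2168 and 2628 CPM in dd. None of these markers was at 0. Of 5 red cell markers 4 were called higher, with summed levels of 69.1 and 68.0 CPM in ff and 237.5 and 305.4 in dd. The fifth, the haemoglobin gene Hba-a2, went the other way without a call, its counts being 205 and 233 (ff) against 51 and 4 (dd; log2 -2.62, adjusted p = 0.174). Hba-a1 and Hba-a2 are near-identical copies, so the split of reads between them is uncertain.

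**Figure D2:**
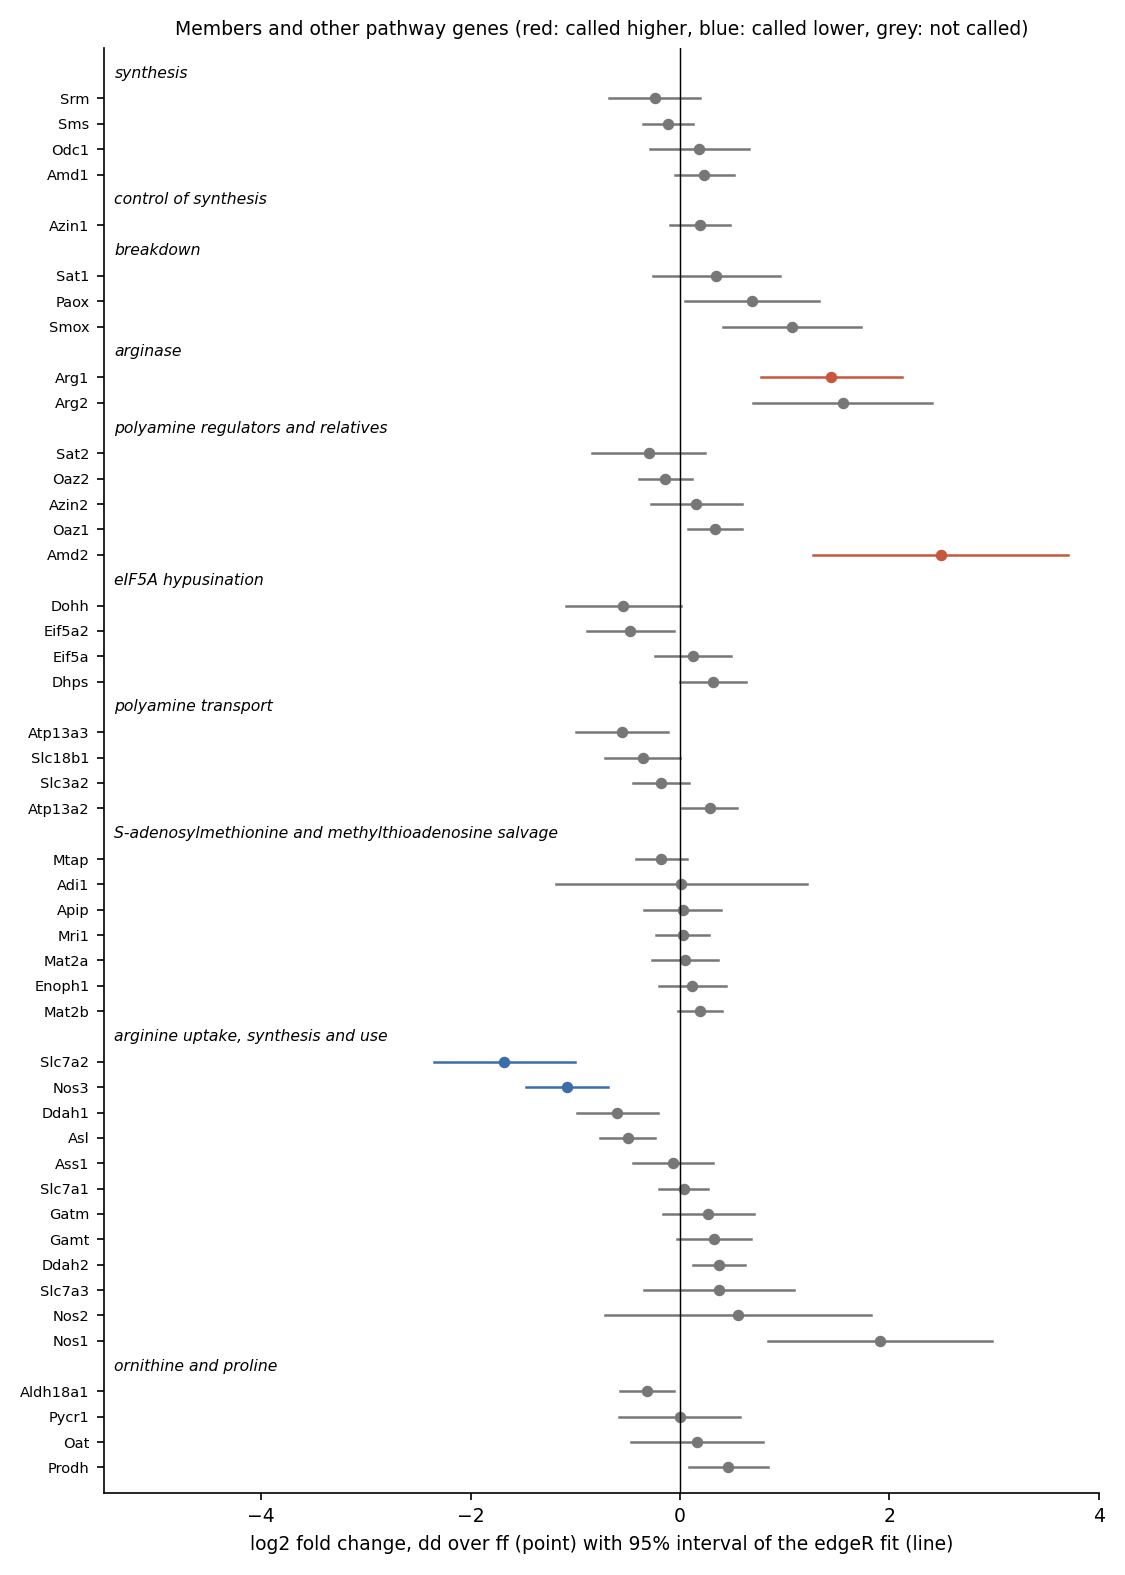
Log2 fold change of dd over ff (horizontal axis) with its 95% interval for the 10 members and the 36 tested genes of the wider pathway list, grouped by role. The intervals of the synthesis genes Srm, Sms, Odc1 and Amd1 cross 0, and the points called by edgeR are Arg1 (1.45) and Amd2 (2.49, which passed the count filter only through dd) on the right and Slc7a2 (-1.68) and Nos3 (-1.08) on the left.

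The other genes of the pathway were read from a list of 44 genes, of which 36 were tested. In edgeR 1 was called higher and 2 lower, where the shares of all genes were 4.52% and 3.86%. The higher gene, Amd2, passed the filter on low counts only through the dd libraries, where it is high, so its call is no support for a direction of the list. The median log2 change of the 36 genes was 0.03. The lower genes both handle arginine. Slc7a2, which encodes a cationic amino acid transporter for arginine, lysine and ornithine, was at 80.8 and 82.3 CPM in ff and 18.7 and 32.2 CPM in dd. Its ff libraries were alike and both dd libraries lay far below them, with a fold of 0.313 (0.196 to 0.50; log2 -1.68, adjusted p = 0.033). Leaving out ff replicate 1 or ff replicate 2 ended the call, at log2 changes of -1.69 and -1.66 (adjusted p = 0.0984 and 0.0675). Of 9 stromal markers 4 were called lower and none higher in these libraries (median log2 -0.86), with summed levels of 14885 and 13123 CPM in ff and 9857 and 6820 CPM in dd, and their part in the Slc7a2 difference was not tested.

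Nos3, the endothelial nitric oxide synthase gene, whose enzyme uses the same substrate as arginase, was at 44.0 and 35.7 CPM in ff and 20.1 and 17.6 CPM in dd. The groups did not overlap, and the fold was 0.473 (0.361 to 0.62; log2 -1.08, adjusted p = 0.0286). Leaving out ff replicate 1, dd replicate 1 or dd replicate 2 ended the call, with adjusted p = 0.0867, 0.0689 and 0.0926. Of 6 endothelial markers all 6 were called lower (median log2 -0.94), none was at 0, and their summed level was 1104 and 1004 CPM in ff and 525.4 and 544.5 CPM in dd. The part of endothelial RNA in the Nos3 difference was not tested. Nos3 overlaps Atg9b and Gm15587 on the opposite strand, with 59 to 145 and 9 to 34 counts per library. The general arginine transporter gene Slc7a1 was at 62.8 ± 3.85 and 64.4 ± 2.60 CPM (fold 1.03, 0.87 to 1.21). Ass1, which with Asl rebuilds arginine from citrulline, was at 11.4 ± 0.27 and 10.8 ± 0.544 CPM (fold 0.954, adjusted p = 0.791). Asl itself was lower in dd, just short of a call, at 86.4 ± 4.78 and 61.1 ± 4.96 CPM (log2 -0.50, adjusted p = 0.0514).

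Amd2 is a copy of Amd1 elsewhere on chromosome 10, at 35708675 to 35711892 against 40287458 to 40302186 for Amd1, and it was the gene called higher. Its counts were 9 and 4 in ff against 32 and 29 in dd (log2 2.49, adjusted p = 0.0458). The call was lost without any 1 library (adjusted p between 0.0929 and 0.119), with limma-voom (0.0501) and with limma-trend (0.0559), and a filter of 1 CPM in 2 libraries removed the gene. Amd1, with 2922 to 4049 counts per library, has a reading frame of the same 1005 bases, and the frames differ at 1 base, G796C, counted from the A of the start codon with the base of Amd1 first. The stretch around it, bases 776 to 816 of the frame, shows how little sequence separates the genes, with the differing base in capitals.
Amd1: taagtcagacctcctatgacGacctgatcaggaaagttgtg
Amd2: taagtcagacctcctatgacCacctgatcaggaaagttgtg
How the authors' counting assigned reads shared by such copies was not given in the sources used here, so the counts of Amd1 and Amd2 are uncertain. The pseudogenes Amd-ps1, Amd-ps3, Amd-ps4, Amd-ps5, Amd-ps6 and Sms-ps had 0 to 14 counts per library. The other related pairs were far apart, at 64.1% identity for Arg1 and Arg2, 63.7% for Paox and Smox and 61.9% for Srm and Sms.

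None of the 7 tested genes of S-adenosylmethionine supply and methylthioadenosine salvage was called by edgeR or DESeq2, and none had an unadjusted p under 0.05. Over all genes 8.39% were called in edgeR, and 14.9% were higher and 14.4% lower at that unadjusted p. With only 7 genes the absence of a call is no result about the group. Mat2a, which makes S-adenosylmethionine outside the liver, was at 313.5 ± 5.80 and 324.7 ± 39.4 CPM (fold 1.04, 0.832 to 1.29). Eif5a, the translation factor that carries the spermidine-derived amino acid hypusine, was at 619.8 ± 90.8 and 674.4 ± 3.68 CPM (fold 1.09, adjusted p = 0.607). None of the 4 tested polyamine transport genes was called by edgeR or DESeq2, with 1 higher and 2 lower at an unadjusted p under 0.05, where the shares of all genes were 14.9% and 14.4%. With only 4 genes this too is no result about the group.

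Per length of transcript, Smox stood higher in the order of the members in dd than in ff. On the deposited FPKM scale, which allows levels of different genes to be compared, Srm led in ff at 66.6 ± 12.3 FPKM. Sat1 (49.9 ± 16.6) and Odc1 (40.2 ± 6.93) followed, and each overlapped its neighbour. Amd1 (30.9 ± 3.15), Smox (16.8 and 28.1 in its libraries) and Azin1 (19.4 ± 1.01) came next, of which Smox and Azin1 overlapped. Sms, Arg2 and Paox lay between 5.11 and 6.31 FPKM with overlapping libraries, and Arg1 was last at 0.466 ± 0.00858. In dd, Smox stood after Sat1 and Srm at 47.1 ± 3.21 FPKM, overlapping Odc1 at 45.7 ± 8.66, with Sat1 at 63.5 ± 1.84 and Srm at 56.4 ± 7.90. Arg2 reached 17.5 ± 7.54 FPKM in dd and no longer overlapped Paox (8.23 ± 0.982) or Sms (5.83 ± 0.0354). Arg1 was again last, at 1.27 ± 0.12 FPKM.

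Ratios of FPKM within a library do not depend on its depth, and the pairs given here were chosen after the values were seen, so they are descriptions. Smox over Sms, enzymes that convert spermine and spermidine in opposite directions, was 2.58 and 4.58 in ff and 7.72 and 8.43 in dd. Smox over Sat1 was 0.272 and 0.736 in ff and 0.692 and 0.794 in dd, so these groups overlapped. Odc1 over Srm was 0.599 and 0.609 in ff and 0.779 and 0.836 in dd, a narrow range in each group although each gene alone overlapped between groups. Other ratios with Odc1 overlapped between groups. Odc1 over Oaz1 was 0.454 and 0.329 in ff and 0.302 and 0.399 in dd. Azin1 over Odc1 was 0.414 and 0.57 in ff and 0.597 and 0.398 in dd. Arg2 over Arg1 was 11.9 and 13.6 in ff and 16.8 and 10.2 in dd, with no separation of the groups. Arg2 over Nos3 was 0.53 and 0.727 in ff and 4.71 and 2.83 in dd. A ratio shows unequal change of its genes and not which of them changed.

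**Figure D3:**
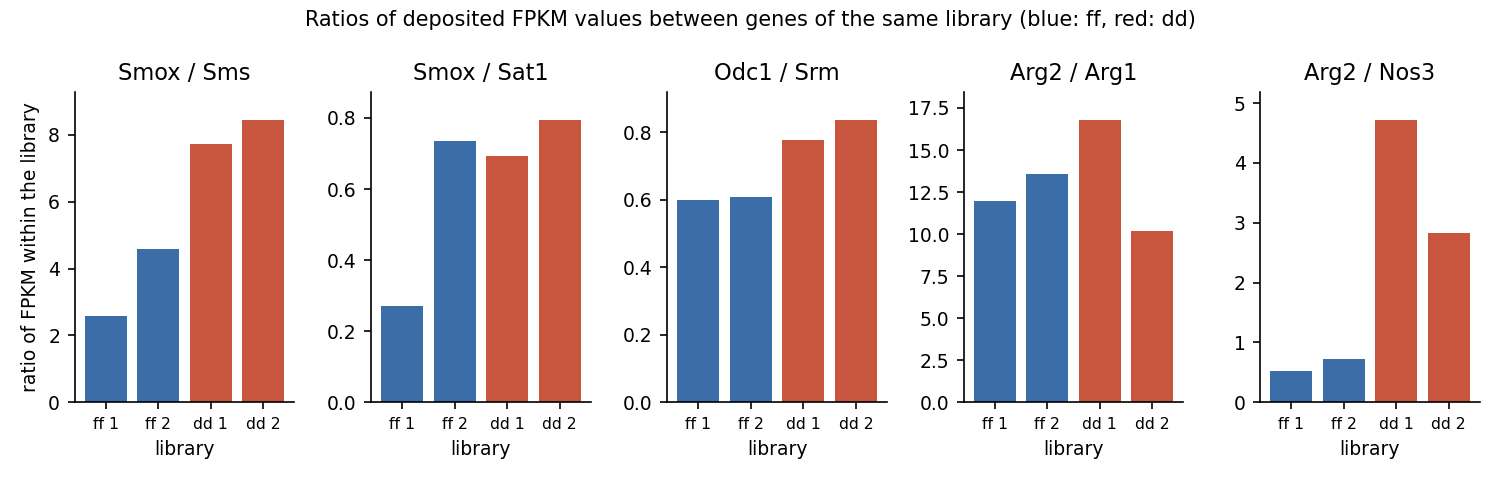
Ratio of deposited FPKM values between 2 genes of the same library (vertical axes, linear from 0) for 5 pairs, 1 bar per library, ff in blue and dd in red. Smox over Sms is 2.58 and 4.58 in ff against 7.72 and 8.43 in dd, and Arg2 over Nos3 is below 1 in both ff libraries and above 2 in both dd libraries.

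Leaving out each library in turn moved the members by different amounts, as the plot of these fits shows. Arg1 moved least for its size, between 1.35 and 1.55 on the log2 scale. Paox ran from 0.39 without ff replicate 2 to 1.07 without ff replicate 1, and Sat1 from 0.05 to 0.73 for the same libraries. These fits take the single library of the reduced group to vary as the intact group does, and the number of genes called over the whole table was between 82 and 1051.

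**Figure D4:**
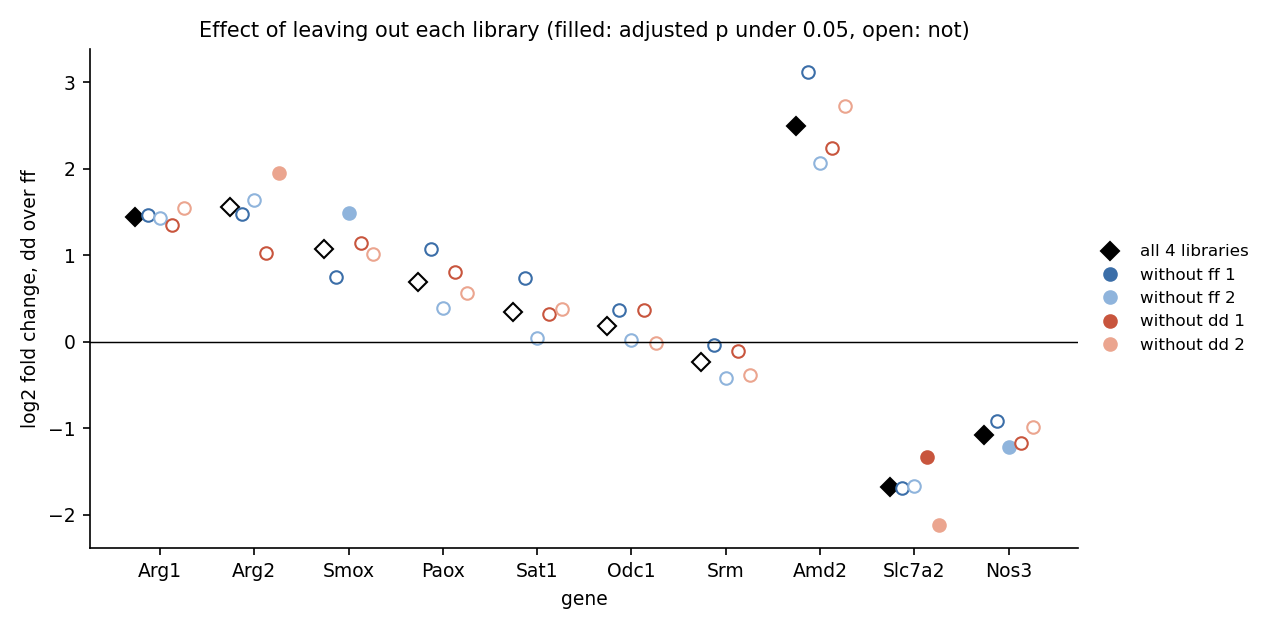
Log2 fold change of dd over ff (vertical axis) for 10 genes with all 4 libraries (diamonds) and with each library left out (circles), filled where the adjusted p was under 0.05. The Arg1 circles lie between 1.35 and 1.55 and are all open, and among the members only Arg2 without dd replicate 2 and Smox without ff replicate 2 are filled circles.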

How the data were processed

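RNA sequencing counts of 2 ff and 2 dd libraries were analysed. The submitters' processing notes name STAR, edgeR and mm10, with no versions; the read counter, annotation and strand setting were not given in the sources used here. The deposited table holds whole-number counts, a rescaled signal made by the authors from the counts (untested here), values that are FPKM per the file headers (RPKM in the series design text), a fold, which the authors give as a ratio, and the authors' unadjusted p-value, from a test that is not named. For 92.6% of 17637 genes with 50 or more counts, the deposited fold was the ratio of mean rescaled signals to within 0.01 (log2).

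The whole table of deposited counts was fitted in edgeR 4.0.16 under R 4.3.3, without a block, using filterByExpr, TMM factors, the quasi-likelihood test and Benjamini-Hochberg adjustment over 18530 genes. The method was tested on simulated counts. Intervals of log2 changes come from this fit. A count of 3 was worth 0.0901 to 0.127 CPM. Replicates differed by more than counting noise (chi-square per degree of freedom 35.3 in ff and 36.0 in dd). The alternatives tried were leaving out each library, a replicate block, other scalings (DESeq2 1.42.0 size factors, upper quartile, library size alone), other filters (none, or 1 CPM in 2 libraries) and other tests (DESeq2 Wald, limma-voom and limma-trend on log2(FPKM + 0.5), limma 3.58.1).

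All 10 members were named, with the called genes of a 44-gene pathway list, Oaz1, Oaz2, Eif5a, Mat2a, Ass1, Slc7a1, Mapk14 and Myc. For Odc1, Sat1 and Arg1 the 3 genes of at least 5 CPM with the nearest profile were added, of which 1 is not reported here. Other genes were named after their values were seen. Members and lists were chosen with earlier results of these data known. Positions are those of the GENCODE annotation on mm10, and all 54152 symbols matched it. Reading frames are the longest open frames of its transcripts.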

Additional observations from a re-analysis of the deposited data

How the results depend on the processing

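Arg1 kept its call in 8 of 13 alternatives and its direction in all 13. It lost the call without any 1 library and with the replicate block. With no filter on low counts and with the DESeq2 Wald test 3 members were called (Arg1, Arg2 and Smox), along with 7 and 6 genes of the pathway list and 2947 and 2860 of all genes, and the cause was not tested. Without 1 library, 0 to 1 members, 0 to 2 list genes and 82 to 1051 of all genes were called, in fits with fewer samples, and the members' median log2 change ran from 0.19 to 0.55. The member called was Smox without ff replicate 2 and Arg2 without dd replicate 2. Signs turned for genes near 0 that were never called. Without 1 library, the log2 changes ran from -0.015 to 0.37 for Odc1, from -0.020 to 0.28 for Eif5a, from -0.079 to 0.17 for Mat2a and from -0.025 to 0.0997 for Slc7a1. Mat2a was at -0.0011 with upper quartile factors and -0.032 with the library size alone, and Slc7a1 at -0.015 and -0.049, but these scalings moved the median of all genes too, from 0.0022 to -0.049 and -0.082, and both genes stayed above it. The labels do not tie equal replicate numbers together, and same-numbered deviations were uncorrelated across genes (0.00873 over 18530 genes, 2 pairs). With the replicate block 1531 genes were called, the 1 member called was Smox (adjusted p = 0.0346) in place of Arg1 (0.0624), and Nos1 joined Amd2, Nos3 and Slc7a2. Arg1 and Amd2 had 35 or fewer counts in each ff library, which limits their precision.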

Other observations

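Some genes followed a member closely over the 4 libraries. Likeness was the Euclidean distance between profiles of log2(CPM + 0.5) centred on their means, given as a description with no test. The genes were picked for this likeness, so a pattern shared with the member follows from the choice. Nearest to Odc1 among 11965 genes were the chaperone gene Hspa8 (distance 0.0273), Cacybp (0.0561) and Trim16 (0.0619). Hspa8 was at 2491 and 1924 CPM in ff and 2174 and 2778 CPM in dd, the same order of libraries as Odc1. Among the 3 genes nearest to Sat1 were Ttc9 (0.0595) and Map6 (0.13), both with their lowest level in ff replicate 2. Nearest to Arg1 were the desmosomal cadherin gene Dsg2 (0.109), the transcription factor gene Gtf2f2 (0.109) and the fatty acid elongase gene Elovl5 (0.115). Their log2 changes were 1.09, 1.18 and 1.04, and their calls as higher in dd follow from the choice by likeness. The added 0.5 narrows the profile of Arg1, whose levels were 1.05 and 1.03 CPM in ff and 3.05 and 2.64 CPM in dd.

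Further genes of the arginine list, named here after their values were seen, lay near the threshold. Nos1, the neuronal nitric oxide synthase gene, was counted 29 and 55 times in ff against 100 and 172 times in dd (log2 1.91, adjusted p = 0.0596). Asl, the argininosuccinate lyase gene, was at 86.4 ± 4.78 CPM in ff and 61.1 ± 4.96 in dd (log2 -0.50, adjusted p = 0.0514). Ddah1, whose enzyme clears methylated arginines that inhibit nitric oxide synthases, was at 25.4 ± 0.737 and 16.8 ± 2.60 CPM (log2 -0.60, adjusted p = 0.0784). Its relative Ddah2 went the other way, from 80.9 ± 7.24 CPM in ff to 104.7 ± 0.311 in dd (log2 0.37, adjusted p = 0.0848).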
